A study of Schizosaccharomyces pombe with 3 samples.

Results

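The cytosolic ribosomal protein genes of fission yeast, Schizosaccharomyces pombe, are described here across 3 arrays that mapped Ssn6, a subunit of the Ssn6-Tup11/12 corepressor. Members were the array features named rpl or rps with a digit or rpp0 to rpp2, intergenic features carrying the prefix IGR-. Features whose systematic name has such a symbol in RefSeq were added. They came to 278 of 10214 features, of which 140 were intergenic and 138 coding. Only 4 entered through the annotation, and 4 features of RNase P genes with similar symbols were left out. A single RefSeq gene matched 253 members, 13 had a name that fits several genes, and 12 had no match.

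All 3 arrays belong to 1 group. The cells expressed a fusion of Ssn6 with GFP and were in mid log phase in rich medium, YES. An anti-GFP antibody precipitated the crosslinked chromatin, and precipitate and input were amplified, labelled and hybridised together on arrays of intergenic and coding spots. Per the labels the chromatin came from separate experiments. Samples of untagged cells or of a mock precipitation were not analysed here, so no background of the precipitation itself stands beside the values.

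Ribosomal protein genes encode the protein parts of the large subunit (rpl genes and the stalk genes rpp0 to rpp2) and of the small subunit (rps genes). In fission yeast many exist as paralogues that encode the same or nearly the same protein, and they are transcribed strongly in growing cells. Their promoters commonly carry the HomolD box, which serves in place of a TATA box, and some also carry a HomolE box. Ssn6 binds no DNA sequence by itself and is brought to promoters by DNA-binding proteins, where the corepressor lowers transcription.

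The promoters of the 5 genes whose intergenic feature was called enriched are printed first, with that of rpl2502, the paralogue of rpl2501. These 5 are a smaller share of the tested members (10.6%) than enriched features are of all tested intergenic features (19.7%). The last line is the gap between rps1602 and rpl13, shared by the lowest intergenic member and another of the 5 lowest. Sequences are from RefSeq, build ASM294v3, written 5′ to 3′ on the gene's strand up to the base before the annotated gene start, at most 250 bases and not beyond the neighbouring gene. Capitals mark the HomolD core CAGTCAC or its complement GTGACTG. The array files give no coordinates, so that an intergenic spot covers these bases is not known.

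rpl2501 (array name rpl25a, chrII:413277-413526, + strand): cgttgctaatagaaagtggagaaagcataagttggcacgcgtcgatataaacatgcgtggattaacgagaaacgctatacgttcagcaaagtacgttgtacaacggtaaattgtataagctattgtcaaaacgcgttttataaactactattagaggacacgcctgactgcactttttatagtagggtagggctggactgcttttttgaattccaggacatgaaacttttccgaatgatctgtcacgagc
rpl2502 (rpl25b, chrII:2690613-2690820, + strand): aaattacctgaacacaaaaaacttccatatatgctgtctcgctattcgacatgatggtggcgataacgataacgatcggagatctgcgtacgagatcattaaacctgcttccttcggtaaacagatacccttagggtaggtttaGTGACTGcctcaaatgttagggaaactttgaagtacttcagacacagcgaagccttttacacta
rpl1001 (rpl10-1, chrII:2081231-2081480, + strand): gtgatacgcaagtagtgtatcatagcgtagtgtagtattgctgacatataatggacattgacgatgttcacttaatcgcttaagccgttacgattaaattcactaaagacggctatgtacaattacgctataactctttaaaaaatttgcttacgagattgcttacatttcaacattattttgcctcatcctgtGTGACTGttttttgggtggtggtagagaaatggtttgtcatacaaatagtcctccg
rpl302 (rpl3-b, chrI:4919028-4919277, - strand): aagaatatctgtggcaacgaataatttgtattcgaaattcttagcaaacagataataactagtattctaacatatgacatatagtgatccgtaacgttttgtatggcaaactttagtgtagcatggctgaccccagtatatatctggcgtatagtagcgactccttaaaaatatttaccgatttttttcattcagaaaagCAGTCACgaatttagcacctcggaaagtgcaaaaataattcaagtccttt
rpl4102 (rpl41-2, chrI:2853932-2854181, - strand): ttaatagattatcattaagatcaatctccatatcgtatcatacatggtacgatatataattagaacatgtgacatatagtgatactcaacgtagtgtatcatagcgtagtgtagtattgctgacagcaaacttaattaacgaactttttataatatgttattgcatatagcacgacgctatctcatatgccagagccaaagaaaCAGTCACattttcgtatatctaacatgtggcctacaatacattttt
rps402 (rps4-2, chrII:1651834-1651919, - strand): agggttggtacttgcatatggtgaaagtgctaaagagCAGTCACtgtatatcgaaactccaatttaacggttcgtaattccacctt
Gap between rps1602 and rpl13 (chrI:1711083-1711184, + strand): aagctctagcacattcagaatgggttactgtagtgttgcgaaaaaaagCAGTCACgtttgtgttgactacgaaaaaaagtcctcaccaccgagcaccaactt

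The HomolD core stood, on either strand, within 250 bases before the start of 126 of 138 cytosolic ribosomal protein genes in RefSeq (91.3%), against 4.52% of all 5112 protein-coding genes. The nearest match ended a median of 45 bases before the start. The HomolE core, searched as ACCCTAC or GTAGGGT, stood before 44 of the 138 genes (31.9%) and before 2.35% of all genes. These searches covered all 250 bases, also where they run into a neighbouring gene, whereas the printed stretches stop there. Of the printed stretches only that of rpl2501 holds HomolE, so the motifs do not overlap there, and the longer window of rps402 holds it as well. Among the 6 genes named above, only rpl2501 has no exact HomolD core in its window. The 43 tested intergenic members with a window divide into 38 with the core, whose median log2 ratio was 0.22, and 5 without it, whose median was 0.62. HomolE divided them into 15 with a median of 0.28 and 28 with a median of 0.15. Read as channel B over A, a choice explained next, these medians were 0.04 and 0.14 for HomolD and 0.14 and 0.00 for HomolE.

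A value below is a log2 ratio of the channel that is likely the immunoprecipitate over the other, likely input, with the median of each array set to 0. The direction is not settled. The labels put input in Cy3 and precipitate in Cy5 without a dye swap, but the files name only channels A and B. Across the 3960 features measured on all 3 arrays, channel B over channel A on replicate 2 correlated with replicates 1 and 3 at -0.48 and -0.54, while those correlated at 0.72 with each other. Replicate 2 was therefore read as channel A over channel B, as the rule for these genes states, and results that rest on it are also given with channel B over A, which turns the sign of each replicate 2 value. The sign of every ratio could be turned as a whole.

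Replicate 2 gave a ratio for 134 intergenic and 133 coding members. Replicates 1 and 3 gave 67 and 64 intergenic members and 92 and 74 coding ones. All 3 arrays measured 47 of the 140 intergenic members (33.6%, against 25.7% of all intergenic features) and 70 of the 138 coding members (50.7%, against 52.5%). A further 37 intergenic members had a ratio on 2 arrays, 50 on 1 and 6 on none. Of the coding members 26 had one on 2 arrays, 37 on 1 and 5 on none. A spot needed signal in both channels, so a feature rejected in either channel has no ratio. The 95th percentile of the negative-control spots lay at 1959, 222.7 and 4452 intensity units in the numerator channel of replicates 1, 2 and 3. The numerator of 15, 47 and 7 of the 47 tested intergenic members, and of 21, 70 and 6 of the 70 coding members, lay above it. That numerator was averaged over all spots of a feature, spots without signal included. For intergenic members these shares were 31.9%, 100% and 14.9%, against 43.9%, 100% and 23.7% of all tested intergenic features. For coding members they were 30%, 100% and 8.57%, against 32.1%, 100% and 11.5% of all tested coding features.

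As a group the intergenic members were not high. Their mean log2 ratios were 0.18, 0.28 and 0.28 on replicates 1, 2 and 3, or 0.25 ± 0.06 (SD, n = 3 arrays), against 0.40, 0.52 and 0.51 over all 1327 tested intergenic features. The median of the members was 0.17 and that of all intergenic features 0.36. With channel B over A on all arrays the members' mean was 0.06 ± 0.30 and that of all intergenic features 0.13. As replicate 2 is read here, the members' mean thus stood below that of all tested intergenic features on each array. With channel B over A the order on replicate 2 is the opposite, since its values change sign. Over all 134 intergenic members with a ratio on replicate 2 the median was 0.14, against 0.07 over all intergenic features there. The distance between members and all features was not tested, because the genes were chosen with results of these arrays known.

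Of the 47 tested intergenic members 5 were enriched (10.6%), where 19.7% of all tested intergenic features were (limma against 0, Benjamini-Hochberg adjusted p under 0.05 over all 3960 features). None was depleted, against 0.904% of all intergenic features. Limma gave an unadjusted p under 0.05 for 8 members above 0 and 2 below 0, against 424 and 51 of all 1327. The ratio was above 0 on all 3 arrays for 20 of the 47 (42.6%, against 48% of all) and below 0 on all 3 for 8 (17%, against 9.95%). Leaving out replicate 1, 2 or 3 gave 2, 5 and 3 enriched intergenic members, against 12.1%, 19.7% and 7.87% of all. Of the 5, rpl25a alone was called each time. In the other reading 5 of the 47 were above 0 on all 3 arrays (10.6%, against 12.5% of all) and 4 below (8.51%, against 9.19%). With channel B over A, limma called 0 of the 47 and 0 of all 1327, and 0 members and 25 of all had an unadjusted p under 0.05.

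The 5 enriched features belong to 4 genes of the large subunit and 1 of the small. Upstream of rpl25a, whose protein lies near the exit of the peptide tunnel, the log2 ratios were 2.34, 1.79 and 1.33 on replicates 1, 2 and 3. The mean was 1.82 ± 0.50 (SD, n = 3), a 3.54-fold ratio with an adjusted p of 0.0055 by limma. Every array put this feature above 1, and it was the highest of the 47. Its ratios on replicates 1 and 3 came from 1 spot each. The mean of this feature was 0.63 with channel B over A.

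The feature of rpl10-1, which encodes a large-subunit protein close to the catalytic centre, read 1.44, 1.12 and 1.53, a mean of 1.36 ± 0.22 (SD, n = 3; limma adjusted p = 0.0144). That of rpl3-b, from the gene of another protein that reaches toward the catalytic centre, read 1.28, 0.93 and 1.18, a mean of 1.13 ± 0.18 (SD, n = 3; adjusted p = 0.0298). Neither feature fell below 0.9 on any array, and rpl3-b stood below rpl10-1 on each of them. Their means were 0.62 and 0.51 with channel B over A.

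At rpl41-2, a gene for one of the smallest known ribosomal proteins, the ratios were 0.77, 1.62 and 0.92, with a mean of 1.10 ± 0.45 (SD, n = 3; limma adjusted p = 0.0414). Replicate 2 was the highest there. At rps4-2, from one of 3 copies of a small-subunit gene, they were 0.83, 1.12 and 1.31, with a mean of 1.08 ± 0.24 (SD, n = 3; adjusted p = 0.0365). Means with channel B over A were 0.02 and 0.34. Numerator signals passed the limit set by the negative controls on each array at rpl25a, rpl10-1, rpl41-2 and rps4-2 and on replicate 2 alone at rpl3-b. Below replicate 3's limit of 4452, rpl3-b read 3413 intensity units there. Only 1 spot gave the ratio of rpl10-1 and rps4-2 on replicate 3 and of rpl3-b on replicate 1.

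Next in order, and not called, came rpl22, rpl25b, rps26-1, rpp1-3 and rps12-2. Their means ran from 0.99 at rpl22 to 0.67 at rps12-2. At rpl22 replicate 3 alone, at 2.24, lay above 1, beside 0.14 and 0.58. The members rpl25b (0.73, 0.45 and 1.30) and rps26-1 (0.28, 1.44 and 0.69) were above 0 on all 3 arrays, whereas rpp1-3, a gene for an acidic stalk protein, read 1.07, -0.15 and 1.20. Without replicate 2 the mean of rpp1-3 was 1.14 and it was called enriched (limma adjusted p = 0.037). Among these 10 features the ranges over arrays of neighbours in the order overlapped. Their order differed with channel B over A, where rpp1-3 read 0.81, rpl22 0.60, rpl25b 0.53, rps12-2 0.43 and rps26-1 -0.16.

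**Figure D1:**
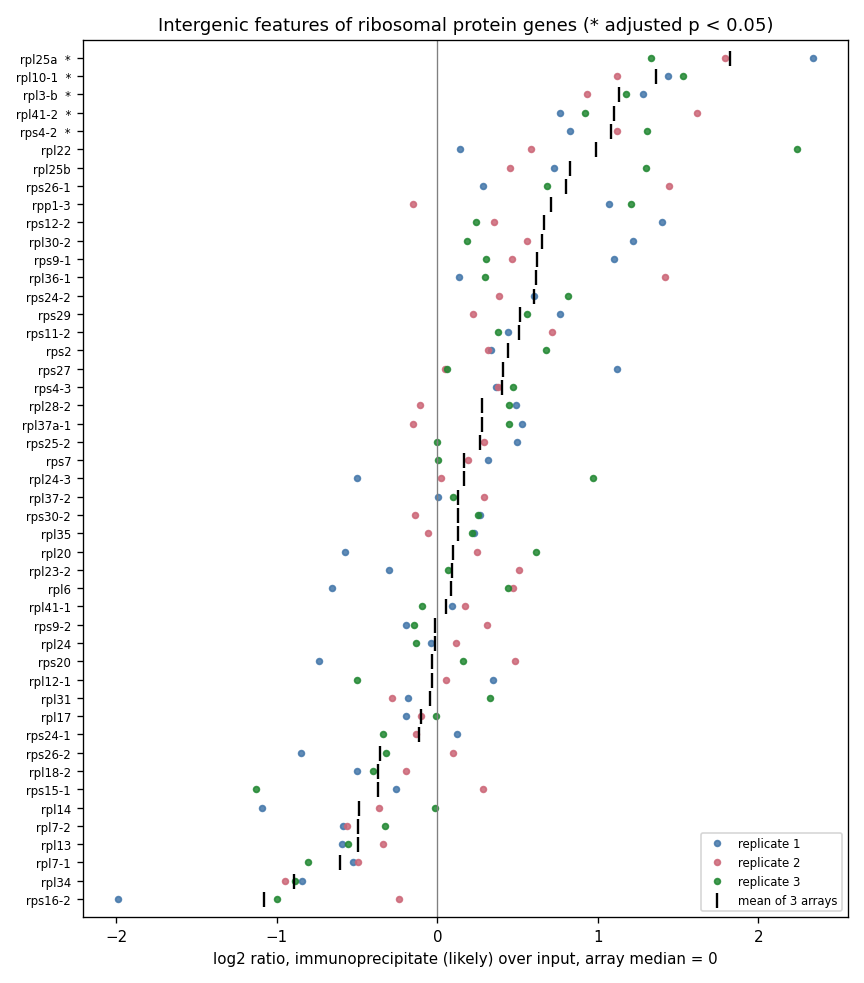
Log2 ratio (x axis) of the 47 intergenic features of ribosomal protein genes measured on all 3 arrays (y axis, ordered by mean). Coloured points are replicates 1, 2 and 3, black bars their mean, and an asterisk marks limma adjusted p under 0.05. The 5 marked features, rpl25a to rps4-2, lie above 0.7 on every array, and 19 of the other 42 have ratios on both sides of 0.

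At the low end stood rps16-2, rpl34, rpl7-1, rpl13 and rpl7-2, none of them called. The ratios of rps16-2, a small-subunit gene, were -1.99, -0.24 and -0.999, a mean of -1.08 ± 0.88 (SD, n = 3; limma adjusted p = 0.0746). Those of rpl34 were -0.84, -0.95 and -0.89, a mean of -0.89 ± 0.05 (SD, n = 3; adjusted p = 0.063), the tightest spread of the 5. All 5 features were below 0 on all 3 arrays, and with channel B over A their means ran from -0.92 at rps16-2 to -0.11 at rpl7-2. The spots of rps16-2 and rpl13 are named for genes that face each other across the 102-base gap printed above, and rpl13 read -0.59, -0.34 and -0.55. The pair differed most on replicate 1. When intergenic and coding features were centred apart, rps16-2 and rpl34 were called depleted, with means of -1.44 and -1.25, beside 3.77% of all intergenic features.

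Replicate 2, with nearly complete coverage, shows the members that the other arrays missed. Its intergenic members ran from -1.38 at rpl26 to 2.04 at rpl23-1, and 15 of 134 (11.2%) were at or above 1, against 13.3% of all 4908 intergenic features. The median was 0.14 and that of all intergenic features 0.07. Read as channel B over A this order is inverted, with rpl26 highest at 1.38 and rpl23-1 lowest at -2.04, and 2 of 134 (1.49%) at or above 1, against 1.71% of all. Members with ratios on only 2 arrays include rpl13a-1 (3.85 and 1.45 on replicates 1 and 2), which was chosen after its values were seen. It was called enriched by limma once features on 2 or more arrays were admitted, with an adjusted p of 0.0087. Under that filter 6 of 84 members and 13.7% of all intergenic features were enriched, and rpl41-2 (adjusted p = 0.0532) and rps4-2 (0.0509) were no longer called.

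An annotated long terminal repeat, the end sequence of a retrotransposon, was noticed in 3 of the enriched promoters. RefSeq places such a repeat in the gap upstream of rpl1001, rpl302 and rpl4102. The gaps of rpl1001 and rpl4102 share an unbroken run of 75 bases, printed here on the strand of rpl1001, which occurs 62 times in the 3 chromosomes, always within an annotated repeat.

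Shared run: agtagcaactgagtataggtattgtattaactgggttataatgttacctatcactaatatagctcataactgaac

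The repeats measure 348, 360 and 349 bases at rpl1001, rpl302 and rpl4102 and end 204, 119 and 125 bases before the gene start. Only 2 further members with a ratio have an annotated repeat in that gap, of which rps12-1 is described here. On replicate 2 the 5 members with a repeat ran from 0.93 to 1.62, with 1.12 at rpl10-1, 0.93 at rpl3-b, 1.62 at rpl41-2 and 0.97 at rps12-1. The 107 members without one had a median of 0.11 on that array, with a range of -1.38 to 2.04, and 11 of them reached the lowest value of the 5. So, as replicate 2 is read here, all 5 lay in the upper part of the members' range, but not alone there. With channel B over A these values change sign, and the 5 lie in the lower part of the range.

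The same division over all intergenic features gave a median of 0.84 on replicate 2 for 217 features with a repeat and 0.04 for 3863 without. With channel B over A these replicate 2 values change sign, and features with a repeat stand lower. The distance was smaller on the other arrays. Medians with and without a repeat were 0.87 and 0.67 on replicate 1 and 0.87 and 0.57 on replicate 3. Among features tested on all 3 arrays, 36 of 84 with a repeat (42.9%) and 178 of 951 without (18.7%) were enriched. For the ribosomal protein genes these counts were 3 of 3 and 2 of 36 (5.56%). The median of the mean ratios was 1.13 with a repeat and 0.27 without one for the ribosomal protein genes, and 0.51 and 0.11 with channel B over A. Over all features the latter reading gave 0.10 with a repeat and 0.17 without, the opposite order. The division was chosen after the enriched promoters were seen, so no test is given. Gaps with a repeat are also longer, with a median of 1279.5 bases against 634 over all tested features. What the repeats contribute to these ratios was not tested. Whether DNA from other copies of the repeat adds to these spots was not tested.

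Reading a feature as the gap before the gene rests on neighbouring genes. Features of divergent neighbours, whose upstream gaps are the same, correlated at 0.58 over 1068 pairs on replicate 2, those of convergent neighbours at 0.21 over 1073 pairs, and those of tandem neighbours at 0.36 over 1780 pairs. Neighbouring features share the array and partly the DNA, so these are descriptions. The upstream gap of the 39 tested members for which it could be measured had a median of 441 bases, against 681 over 1035 features. Across those 39 members the mean ratio and the gap length had a Spearman rho of 0.43, against 0.23 over the 1035 features. It was 0.22, 0.62 and 0.29 on replicates 1, 2 and 3, 0.61 for the 24 members with a divergent neighbour and 0.19 for the 15 with a tandem one. Channel B over A gave 0.07 for the 39 members and -0.10 for the 1035 features. On replicate 2, over 112 members, rho was 0.23, and over all 4080 features 0.29, and both change sign with channel B over A.

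**Figure D2:**
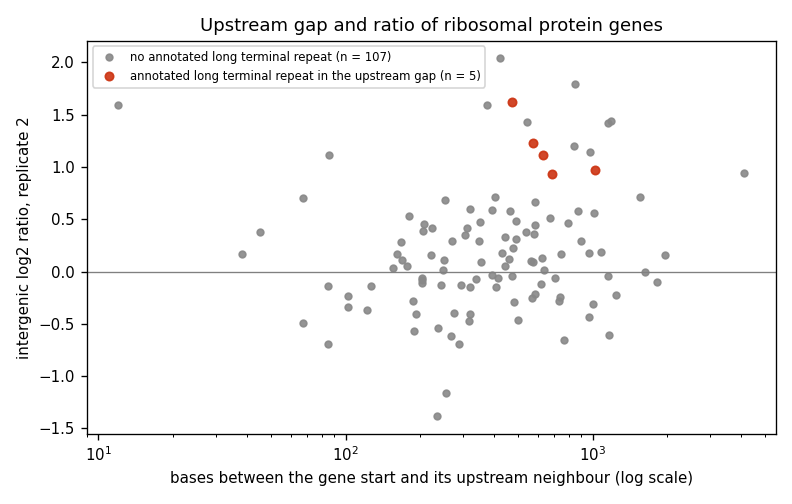
Intergenic log2 ratio on replicate 2 (y axis) against the number of bases between a ribosomal protein gene and its upstream neighbour (x axis, log scale). Each point is 1 of 112 genes, red where RefSeq annotates a long terminal repeat in the gap. The 5 red points lie between 0.93 and 1.62, with 11 of the 107 grey points at or above 0.93. Read as channel B over A, every value changes sign.

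Of 6 tested features of gaps flanked by ribosomal protein genes on both sides, 0 were enriched by limma, against 19.7% of all, and 0 above 0 and 1 below 0 (rps16-2) had an unadjusted p under 0.05. The gap between rps2 and rps20 read 0.33, 0.31 and 0.68 through rps2 and -0.74, 0.49 and 0.16 through rps20, so the readings of 1 gap differed in sign on replicate 1. The gap between rpl7-1 and rps14-2, of 67 bases, read -0.49 and 0.70 through its features on replicate 2. At rpl35 and rpl9-2 the readings on replicate 2 were -0.06 and -0.08.

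Coding members lay below the array median on replicates 1 and 3 and near it on replicate 2. Their mean log2 ratios were -0.62, 0.07 and -0.35 on replicates 1, 2 and 3, or -0.30 ± 0.35 (SD, n = 3 arrays), against -0.47, -0.01 and -0.33 over all 2601 tested coding features. The medians were -0.32 and -0.28. With channel B over A the members' mean was -0.35 and that of all coding features -0.26. The arrays differ more here than members differ from other coding features.

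Of the 70 tested coding members 1 was enriched and 5 were depleted (7.14%). Over all tested coding features the enriched share was 2.42% and the depleted share 7.84%, so both counts were near the background. The ratio was above 0 on all 3 arrays for 8 of the 70 (11.4%, against 12.9% of all) and below 0 on all 3 for 17 (24.3%, against 34.7%). Read as channel B over A, 2 members were above 0 on all 3 arrays (2.86%, against 8.96% of all). In that reading 26 were below 0 on all 3 (37.1%, against 19.2%), so the order of these 2 shares was the opposite. Channel B over A gave 0 calls by limma, and 7 members and 112 of all coding features had an unadjusted p under 0.05.

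The enriched coding feature was rpl23-1, from a large-subunit gene at chrI:3179343-3180003. It read 0.66, 1.09 and 1.37, with a mean of 1.04 ± 0.36 (SD, n = 3; limma adjusted p = 0.0455), and 0.31 with channel B over A. All 3 arrays put it above 0, but its numerator passed the negative-control limit only on replicate 2. On replicate 3 its ratio came from 1 spot. Its intergenic feature had a ratio only on replicate 2, where at 2.04 it was the highest intergenic member. The coding feature rpl20-1-x2 had a higher mean, 1.22 from 1.46, 0.15 and 2.05, and was not called (limma adjusted p = 0.058). The name rpl20-1-x2 matched no RefSeq gene, and its ratios on replicates 1 and 3 came from 1 spot each. The similarly named coding feature rpl20-1 read -0.84, 0.42 and -1.35, a mean of -0.59. Below rpl20-1-x2 and rpl23-1 came rps7, rpl4-2, rpl38-1, rps28-1, rpl12-2 and rps6-1, with means from 0.90 to 0.46 and no call. Except for rps6-1, which read -0.15 on replicate 1, they too were above 0 on all 3 arrays.

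Of the 5 depleted coding features, 4 are described here, rpl28-1, rpl5-2, rpl8-3 and rps23. The large-subunit gene rpl28-1 read -2.42, -0.02 and -1.997, a mean of -1.48 ± 1.28 (SD, n = 3; limma adjusted p = 0.0486). At rpl5-2, whose protein binds the smallest RNA of the large subunit, they were -2.56, -0.30 and -1.54, a mean of -1.47 ± 1.13 (adjusted p = 0.0405). Replicates 1 and 3 carry these low values, and replicate 2 stood within 0.5 of 0 in both.

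The large-subunit gene rpl8-3 read -1.57, -0.26 and -1.75, a mean of -1.19 ± 0.82 (SD, n = 3; limma adjusted p = 0.0497). The feature of rps23, which encodes a protein of the decoding centre, read -0.71, -0.97 and -1.75, a mean of -1.14 ± 0.54 (adjusted p = 0.0405). Of the 4 it was the only one below -0.5 on replicate 2. The next in order, rpl8-2, rps2 and rps3, had means of -1.13, -1.07 and -1.05 and were not called, rps3 reading 0.69 on replicate 2. Without replicate 2, 15 coding members were depleted, beside 19.4% of all coding features. Without replicate 1 or without replicate 3 none was, beside 1.87% and 0.166% of all coding features. The 4 means ran from -1.46 at rpl28-1 to -0.50 at rps23 with channel B over A.

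Ratios moved with input signal on replicates 1 and 3, in intergenic and coding features alike. Across the 70 coding members the log2 ratio and the log2 input intensity correlated at -0.82, 0.00 and -0.75 on replicates 1, 2 and 3, and across all tested coding features at -0.71, -0.17 and -0.71. For the 47 intergenic members the correlations were -0.80, -0.30 and -0.67, and over all tested intergenic features -0.61, -0.18 and -0.58. The ratio contains the input, so part of this is built in. Input intensities were averaged over all spots of a feature, spots without signal included, whereas the ratio leaves such spots out. What this adds to the correlations was not tested. At rpl25a on replicate 1 only 1 spot gave a ratio. The input averaged over all its spots, lower than that of the spot used, read 166.5 intensity units, beside a median of 814 over the intergenic members. At rpl28-1 the input read 5524, 10711 and 8654 intensity units beside medians of 1262, 6195 and 2255 over the coding members. What the input signal contributes to the enriched and depleted calls was not tested.

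**Figure D3:**
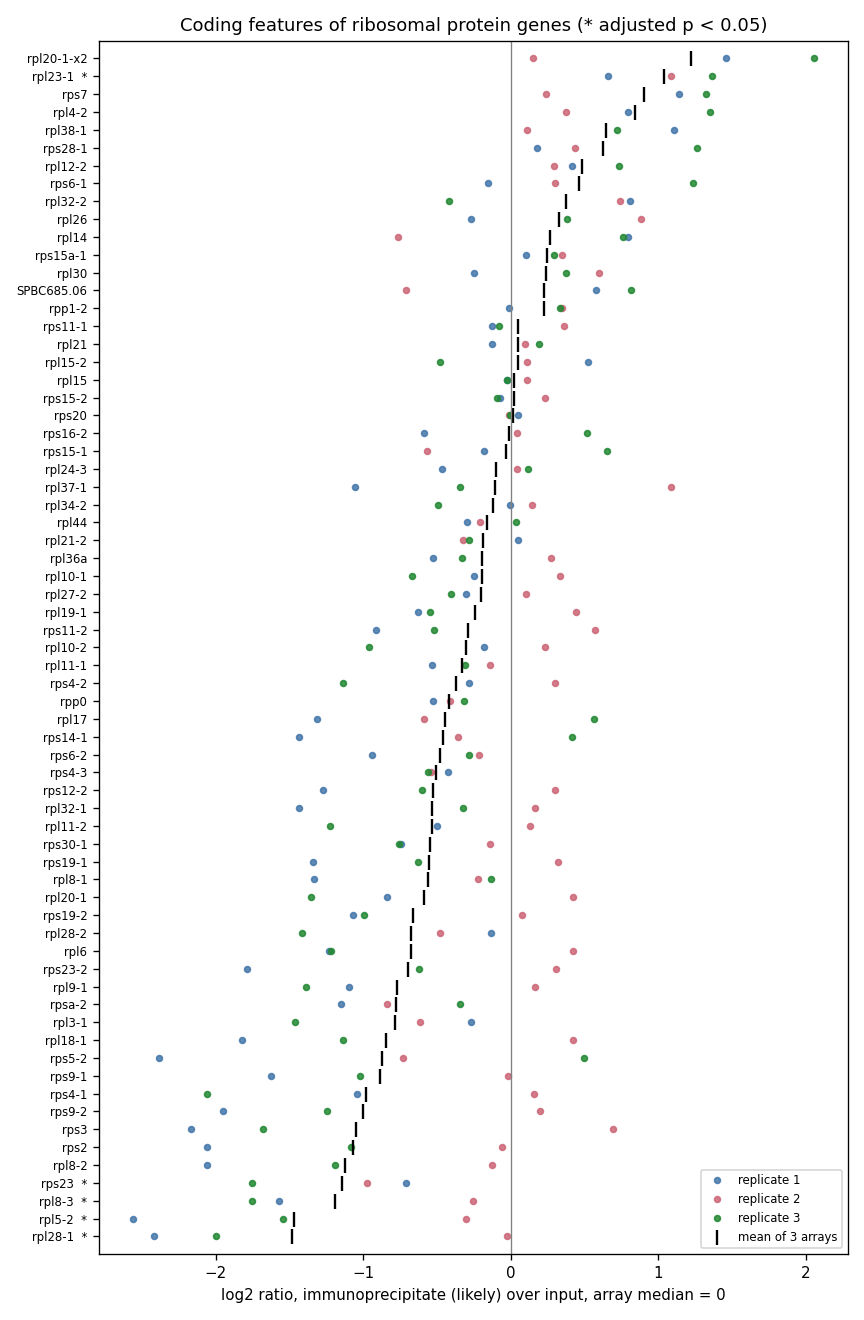
Log2 ratio (x axis) of 67 of the 70 coding features of ribosomal protein genes measured on all 3 arrays (y axis, ordered by mean), with points and asterisks as in the plot of intergenic features. For the lower features, replicate 2 lies near 0 while replicates 1 and 3 reach -2.56 and -2.06.

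No feature of the acidic stalk genes or rpp0 was called. The coding features rpp0 and rpp1-2 had means of -0.42 ± 0.10 and 0.22 ± 0.20 (SD, n = 3), with limma adjusted p of 0.346 and 0.632. On replicate 2 the intergenic features read 0.67 (rpp0), 0.17 (rpp1-1), -0.69 (rpp1-2), -0.15 (rpp1-3), 0.94 (rpp2-2) and 0.01 (rpp2-3), values whose signs turn with channel B over A. Of these 6 only rpp1-3, described above, was measured on all 3 arrays, and its mean was 0.71. The highest of these, rpp2-2, read 1.67 on replicate 1 and had no ratio on replicate 3.

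Large and small subunit genes differed by less than the spread between arrays in intergenic features and by about that spread in coding features. The large minus small difference of mean intergenic log2 ratios was -0.08, -0.11 and 0.20 on replicates 1, 2 and 3, or 0.00 ± 0.17 (SD, n = 3 arrays), over 28 large- and 19 small-subunit features. For coding features it was 0.39, 0.12 and 0.04, or 0.18 ± 0.18, over 39 and 31 features, positive on each array and about as large as its spread. The differences were 0.08 and 0.10 with channel B over A. Neither difference was given a p.

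Comparing each gene's intergenic feature with its own coding feature removes what both share on an array. Among 17 genes with both on all 3 arrays limma called the difference higher for 5 (29.4%), against 29.2% of all 638 genes tested. It was called lower for 0, against 1.1%. The unadjusted limma p was under 0.05 for 1 gene below 0 and 8 above, and for 266 of the 638 in either direction. The median difference was 0.80 for these genes and 0.64 for all. The difference was above 0 on all 3 arrays for 10 of the 17, which was not counted over all genes. None of the 5 calls held under loess, under separate centring, with features on 2 or more arrays, or without replicate 1 or replicate 3, where 11%, 11%, 5.48%, 0% and 5.44% of all genes were called higher by limma (without replicate 1, 4 of 27 members and 169 of 883 genes had an unadjusted p under 0.05). Each of the 5 held without replicate 2. With channel B over A the medians were 0.71 for these genes and 0.40 for all, and limma called 0 of the 17 and 0 of the 638, with 0 and 16 at an unadjusted p under 0.05.

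For rpl10-1 the intergenic feature exceeded the coding one by 1.69, 0.78 and 2.20, a mean of 1.56 ± 0.72 (SD, n = 3; limma adjusted p = 0.0067). For rps4-2 the differences were 1.11, 0.81 and 2.44, a mean of 1.46 ± 0.87 (adjusted p = 0.0119). In both genes the intergenic feature was itself enriched, and the mean differences were 1.04 and 0.91 with channel B over A.

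The other three called genes had intergenic features that were not enriched and coding features that were low. In rps9-1 the differences were 2.72, 0.49 and 1.33, a mean of 1.51 ± 1.13 (SD, n = 3; limma adjusted p = 0.0104), from means of 0.62 and -0.89. The differences of rps2 were 2.39, 0.37 and 1.76, a mean of 1.51 ± 1.03 (adjusted p = 0.0102), from 0.44 and -1.07. For rps12-2 they were 2.67, 0.06 and 0.85, a mean of 1.19 ± 1.34 (adjusted p = 0.0482). Replicate 2 gave the smallest difference in each of these genes, whose mean differences with channel B over A were 1.19, 1.26 and 1.15. At the other end rps16-2, low upstream, had -1.40, -0.28 and -1.52 (adjusted p = 0.0651).

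**Figure D4:**
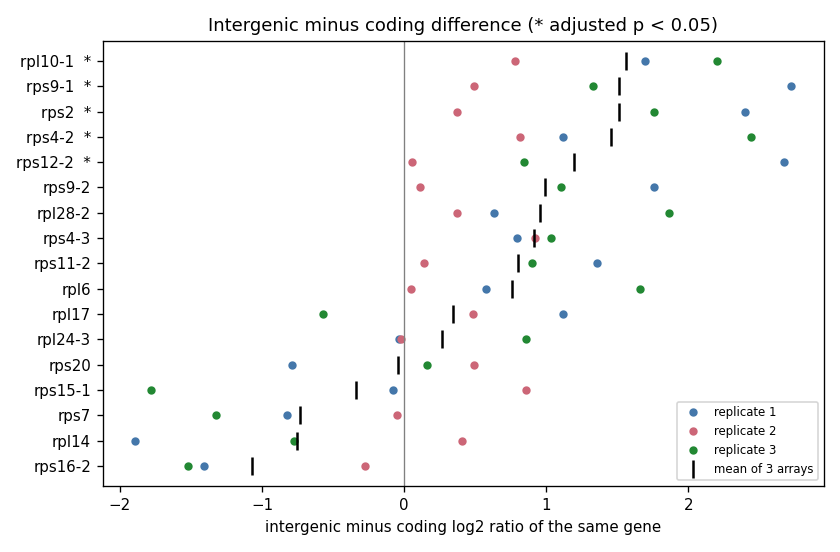
Intergenic minus coding log2 ratio (x axis) for the 17 ribosomal protein genes with both features on all 3 arrays (y axis). Points are replicates, bars means, and asterisks mark limma adjusted p under 0.05. The 5 marked genes are positive on every array, and rps16-2 is negative on every array.

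Paralogues that encode the same protein could differ upstream. Intergenic features allowed 7 paralogue pairs on all 3 arrays, and in 6 the difference had 1 sign on every array. The higher member is written first, which fixes the sign of the mean. The largest was rps26-1 over rps26-2, at 1.13, 1.35 and 1.01, a mean of 1.16 ± 0.17 (SD, n = 3). For rpl41-2 over rpl41-1 it was 0.67, 1.44 and 1.02 (1.04 ± 0.39), and for rpl25a over rpl25b 1.61, 1.34 and 0.03 (1.00 ± 0.85).

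Thus rpl25a and rpl25b, whose promoters are printed above, differed on replicates 1 and 2 and read alike on replicate 3. The pairs rps24-2 over rps24-1, rps4-2 over rps4-3 and rps9-1 over rps9-2 had mean differences of 0.72 ± 0.38, 0.68 ± 0.19 and 0.63 ± 0.59. For rpl7-2 and rpl7-1, both among the lowest members, the difference was 0.12 ± 0.32 and changed sign between arrays. These sizes depend on how replicate 2 is read. For channel B over A the higher member was the same in all 7 pairs, but none kept 1 sign on every array. The mean differences then ran from 0.08 at rpl41 to 0.53 at rps9, with 0.26 at rps26 and 0.10 at rpl25. The differences within pairs were not tested.

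Coding features gave 21 pairs from 17 families, of which 4 had 1 sign on every array. The largest was SPBC685.06 over rpsa-2, the genes rps001 and rps002, at 1.73, 0.13 and 1.16 (1.01 ± 0.81). The next was rps6-1 over rps6-2, at 0.79, 0.52 and 1.52 (0.94 ± 0.52). The smallest mean differences were between rpl15-2 and rpl15 (0.03 ± 0.50), rps15-2 and rps15-1 (0.05 ± 0.77), rpl8-2 and rpl8-3 (0.07 ± 0.52), and rpl10-1 and rpl10-2 (0.11 ± 0.18). Channel B over A left 7 of the 21 pairs with 1 sign and 15 with the same member higher, and the first 2 pairs named differed by 0.92 and 0.60. Coding sequences of paralogues are nearly identical, so a coding spot may also read the DNA of its paralogue, and these pair values are uncertain.

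**Figure D5:**
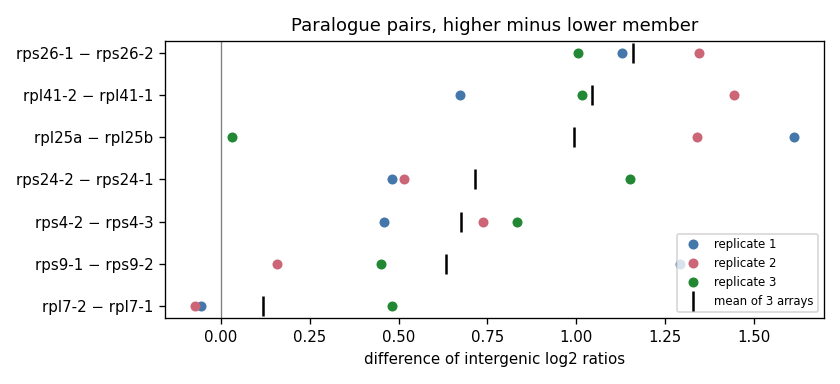
Difference of intergenic log2 ratios (x axis) within 7 pairs of paralogous ribosomal protein genes (y axis), the member with the higher mean minus the other. Points are replicates and bars means. The pairs rps26, rpl41, rps24 and rps4 keep all 3 arrays above 0.4, while rpl25 spans 0.03 to 1.61.

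The study's own list rule, per the labels, took features at or above the 85th percentile of the median percentile rank. Applied to the ratios used here it held 21 of 134 ranked intergenic members (15.7%, against 17% of all ranked intergenic features) and 5 of 133 coding members (3.76%, against 5.16%). It held 12 and 5 with channel B over A, against 14.1% and 5.86% of all. It included coding rpl23-1 and the enriched intergenic features except that of rpl41-2. The rule ranks a feature measured on 1 array, which is why rpl23-1 led the intergenic members from replicate 2 alone.

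Other genes of the ribosome and its synthesis are given for comparison, from lists chosen with results of these arrays known. Their counts stand against the shares over all features, 19.7% enriched among intergenic ones, and 2.42% enriched and 7.84% depleted among coding ones. No list was tested against these shares, and no call in them held with channel B over A. Of mitochondrial ribosomal protein genes, 1 of 7 tested intergenic features was enriched (mrps16, mean 1.24, limma adjusted p = 0.0408) and 2 of 19 coding features were depleted (mrpl15 at -1.63 and mrpl3 at -1.84). Genes listed under ribosome assembly had 2 of 13 intergenic features enriched, those of dim1 (1.53) and utp21 (1.28). They were listed by symbol alone, and whether each, dim1 included, acts in ribosome assembly was not checked. Of their 42 coding features 1 was enriched (rrp4, 1.86) and 5 were depleted (nop12, mak16, rrp9, utp14 and utp5, from -1.04 to -1.53).

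Translation factors had 0 of 6 intergenic features called and 1 of 19 coding features depleted, tif224 at -1.19. RNA polymerase I genes had no call among 1 intergenic and 4 coding features. Among regulators 1 of 2 tested intergenic features was enriched and 1 of 5 tested coding features was depleted. The intergenic feature of sck1 and the coding features of sfp1, sck2, gad8 and tor2 were not called. The intergenic feature of psk1, which encodes a kinase of ribosomal protein S6, read 1.92, 3.43 and 2.88, a mean of 2.75 ± 0.76 (SD, n = 3; limma adjusted p = 0.0013). That feature stood above each of the 47 tested ribosomal protein features and read 0.46 with channel B over A. The coding feature of fhl1, which encodes a forkhead factor linked to ribosomal protein genes, was depleted (-1.21, adjusted p = 0.0348). Those of ubi1, ubi2 and cpc2, ribosomal protein genes outside the naming rule, were not called (-0.05, 0.21 and -0.82).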

How the data were processed

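Per the labels' protocols, arrays were scanned with ScanExpress and quantified with TIGR Spotfinder, and the deposited files give spot intensity for channels A and B. The software version and genome build are not given in the sources used here. The authors also deposited log10 values, median-normalised in GeneSpring per the labels. These have medians of 0.01, -0.04 and 0.02, correlate with 1 channel (B at 0.75 and 0.56 on replicates 1 and 3, A at 0.90 on replicate 2) more than with the ratio used here (0.49, 0.59 and 0.50), and have a floor of -2, so they were used as an alternative only.

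Log2 ratios were computed here from integrated intensities without background subtraction or intensity-dependent normalisation. Spots lacking positive signal in either channel were dropped. The median log ratio of an array was subtracted, and replicate spots were averaged per feature. Replicate 2 was turned. Limma 3.58.1 in R 4.3.3 compared each of the 3960 features present on every array with 0 (lmFit, eBayes, two-sided), with Benjamini-Hochberg adjustment and a threshold of 0.05. The prior had 8.08 degrees of freedom and an SD of 0.547. The smallest p of an exact sign-flip test on 3 arrays is 0.25, so no such test is given. Tested on simulated data of 3960 features, shifts of 1 and 2 were recovered in 9% and 87% of cases, with 5.88% of calls false. For differences over 638 genes recovery was 38% and 99%, with 1.44% of calls false. Simulated features were independent and, apart from the shifts, centred on 0. The intergenic and coding features of these arrays had means of 0.48 and -0.27, so these rates may not hold for the calls given here.

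Genes, gaps and repeats come from RefSeq (ASM294v3). Named features are all called members, the 10 highest and 5 lowest intergenic members, the highest and lowest coding members, called differences, the paralogue pairs that differ most and least, the rpp genes and called members of the other lists. Members and lists were chosen with earlier results of these data known. The number of arrays limits the precision. Alternatives were the opposite reading of replicate 2, normexp correction with an offset of 50, loess, separate centring, other filters, the deposited values and leaving out each array. Values of 3 member genes are not reported here.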

Additional observations from a re-analysis of the deposited data

How the results depend on the processing

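No paired analysis was possible because all arrays belong to 1 group. The cause of each change below was not tested. Intergenic features with channel B over A on all arrays gave 0 enriched members, a mean of 0.061 and 12 members in the rank list. Over all intergenic features these were 0%, 0.129 and 14.1%. Channel B over A left 0 coding members enriched, 0 depleted and 0 differences called higher, against 0% of all in each. Normexp correction gave an intergenic mean of 0.396 and 3 depleted coding members, against 0.75 and 8.27% over all. Loess gave an intergenic mean of 0.173, 2 enriched coding members and 0 higher differences, against 0.442, 4.31% and 11% over all. Centring intergenic and coding features separately gave a mean of -0.114 for the intergenic members, against 0.11 over all intergenic features. It gave 2 enriched and 2 depleted intergenic members and 10 in the rank list, against 11.5%, 3.77% and 11.8% of all. Of the coding members it gave 3 enriched, 3 depleted and 13 in the rank list, against 4.23%, 4.96% and 8.42% of all, and of 17 differences 0 higher and 3 lower, against 11% and 5.17%. Admitting features on 2 or more arrays gave an intergenic mean of 0.413, 0 enriched and 3 depleted coding members and 1 higher difference. Over all features these were 0.548, 1.93%, 4.31% and 5.48%. Spots with input above the array median gave 1 enriched intergenic member of 9 tested, a mean of 0.164 and 13 intergenic members in the rank list. Over all intergenic features these were 19%, 0.35 and 26.1%. The intergenic large minus small difference was 0.563 with these spots. They also gave 3 depleted coding members, 3 coding members in the rank list and 0 higher differences, with 1 gene left to test. Over all features the shares were 9.74%, 7.98% and 8.75%.

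The deposited log10 values gave 0 enriched intergenic members, 0 enriched and 0 depleted coding members and 0 higher differences, and 0 of all features were called there. The rank list held 12 coding members, against 8.25% of all coding features. With them, the signs turned for coding rpl28-1 (0.205) and rpl8-3 (0.869) and for the differences of rpl10-1 (-0.266), rps12-2 (-0.177) and rps9-1 (-0.310).

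Leaving out 1 array at a time gave 2 to 5 enriched and 0 to 1 depleted intergenic members, with a mean of 0.231 to 0.444. Over all intergenic features these were 7.87% to 19.7%, 0% to 2.41% and 0.455 to 0.537. Among coding members 0 to 2 were enriched, 0 to 15 depleted and 2 to 6 in the rank list. Over all coding features the shares were 1.14% to 2.65%, 0.166% to 19.4% and 4.98% to 6.92%. Of the differences 0 to 7 were higher and 0 to 2 lower, against 0% to 36.4% and 0% to 2.35% of all. Signal over background limits replicates 1 and 3, where few members passed the negative-control limit. With channel B over A the limit on replicate 2 is 1026 instead of 222.7 intensity units, and 27% of the negative spots gave signal in that channel.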
